A study of Mus musculus with 18 samples.

Results

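Tumours grown in wild-type (WT) mice given clonidine were set against tumours grown in WT mice given PBS, across all expressed genes. The comparison uses 6 of the 18 libraries of the series: 3 titled WT-Clonidine and 3 titled WT-Control. The study implanted MC38-OVA cells, a mouse colon carcinoma line that expresses the model antigen ovalbumin, into WT or Adra2a-knockout (KO) mice, and sequenced RNA of the whole tumour. The other groups of 3 libraries are WT-Guanabenz, KO-Clonidine, KO-Control and KO-Guanabenz. WT-Clonidine hosts received clonidine, and WT-Control hosts received PBS, by intraperitoneal injection each day. Both groups have the age 10 weeks and tumours taken after 7 days, and both carry the same implanted line, whose cells are not the host's own. The clonidine dose and the sex of the mice are not given in the labels used here. The WT-Control libraries carry the treatment entry untreated, and the protocol names PBS. The labels do not tie the libraries to separate animals, so each p-value measures library-to-library spread, part of which may be technical.

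Clonidine is an agonist of alpha2-adrenergic receptors, which normally bind noradrenaline and adrenaline and couple to inhibitory G proteins that lower cyclic AMP. In the brain these receptors restrain sympathetic outflow, and in the periphery they are found on nerve endings, vessels, fat and immune cells. A tumour sampled whole holds cancer cells, immune cells, vessels and fibroblasts, and in such RNA fewer cells of a type and less RNA per cell cannot be told apart.

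Total estimated counts ran from 84343423 to 275081429 in the WT-Clonidine libraries and from 96450926 to 491137160 in the WT-Control libraries. Levels are given in CPM, counts scaled to a common library total after TMM normalization. The immune marker Ptprc, which encodes CD45, had 177, 162 and 161 CPM in WT-Clonidine libraries, against 114, 158 and 135 CPM in WT-Control libraries. Col1a1, a chain of type I collagen, had 3375, 3230 and 3728 CPM in WT-Clonidine libraries, against 5135, 3712 and 3261 CPM in WT-Control libraries, so both were abundant in every library. Of 11 tested epithelial genes 5 had log2 differences above and 6 below 0, from -2.0 to 1.3, with 1 lower at unadjusted p under 0.05. Their median was -0.00064, and 0.35 with a filter at a mean log2 CPM of 1. The epithelial markers Krt8 and Epcam were scarce. Krt8, an epithelial keratin, had 0.204, 0.134 and 0.251 CPM in WT-Clonidine libraries, against 0.284, 0.37 and 0.139 CPM in WT-Control libraries, and Epcam, an epithelial adhesion molecule, had 1.52, 1.81 and 1.12 CPM in WT-Clonidine libraries, against 0.994, 0.935 and 1.05 CPM in WT-Control libraries. Transcripts of 3 Y-linked genes averaged above 1 CPM in 2 of 3 WT-Clonidine libraries and 3 of 3 WT-Control libraries; WT-Clonidine 3 held 0.19 CPM. In a principal component analysis of the 6 libraries the groups did not overlap on the axis with 31.7% of the variance. Scores on it were -20.1, -14.9 and -17.8 in WT-Clonidine 1 to 3, against 27.8, 1.44 and 23.5 in WT-Control 1 to 3. WT-Control 2 thus lay between the WT-Clonidine libraries and the other WT-Control libraries. WT-Clonidine 3 lay at one end of the next axis, with 24.5%, far from the other WT-Clonidine libraries. On the axis after that, with 18.7%, WT-Control 2 lay at one end.

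Adra2a, the alpha2A receptor gene (chromosome 19, 54045259 to 54048982, GRCm38), was scarce. It had 0.435, 0.484 and 0.32 CPM in WT-Clonidine libraries, against 0.589, 0.401 and 0.286 CPM in WT-Control libraries, so the groups overlapped, and the log2 difference was -0.0011 (SE 0.34). All log2 differences are WT-Clonidine minus WT-Control, with standard errors (SE) from the edgeR fit. The 8 adrenergic receptor genes tested had a median of 0.17 and ranged from -0.21 to 1.07. Adrb1, the beta1 receptor gene, had 1.79, 1.07 and 0.89 CPM in WT-Clonidine libraries, against 0.771, 0.576 and 0.464 CPM in WT-Control libraries, a log2 difference of 1.07 (SE 0.41). For Adrb1 the groups did not overlap, at low levels.

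No single gene passed the test over all genes. Of 16125 tested genes, edgeR's quasi-likelihood test with Benjamini-Hochberg adjustment called 0 at adjusted p under 0.05, which is 0% of tested genes. The smallest adjusted p was 0.066, shared by 9 genes, and 32 genes had an adjusted p under 0.1, of which 11 were higher and 21 lower. At an unadjusted p under 0.05, called nominal here, were 2079 genes (12.9%), of which 964 (5.98%) were higher and 1115 (6.91%) lower. These shares are the base for the nominal counts of lists below, and a count near them is not a result about a list. With total counts in place of TMM scaling the split was 1580 higher and 538 lower and the median of all genes was 0.05, against 0.00 with TMM. DESeq2 gave 355 calls (165 higher, 190 lower) and limma-voom with quality weights gave 773 calls (435 higher, 338 lower), and 347 genes were called by both. Leaving out WT-Control 2 gave 55 edgeR calls (13 higher, 42 lower), and leaving out any of the other 5 libraries gave 0. Without WT-Control 1 the nominal higher genes numbered 593. Ranges of CPM did not overlap between the groups for 1794 genes that were higher (11.1%) and 1582 that were lower (9.81%). Genes named below for their smallest p or largest difference were chosen among these, so their lack of overlap is not a result.

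The nominal genes that were higher differed from those that were lower in size of difference, level and transcript length. The median log2 difference was 0.35 among the 964 higher genes and -0.22 among the 1115 lower genes. Of the 261 genes with a difference above 1 in size, 125 were nominal, 90 higher and 35 lower. The median level was 4.02 log2 CPM for the higher genes and 5.66 for the lower genes, against 4.31 for all tested genes. The lower genes were thus the more abundant ones, with the smaller differences.

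**Figure D1:**
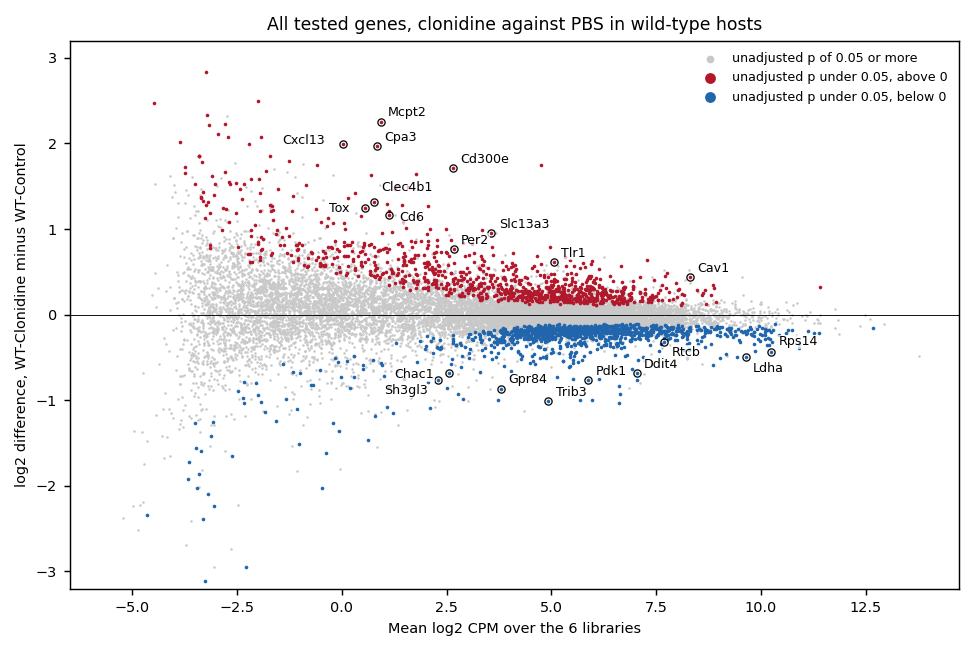
Each point is a tested gene, with its mean log2 CPM over the 6 libraries on the x axis and its log2 difference, WT-Clonidine minus WT-Control, on the y axis; red and blue points are the 964 higher and 1115 lower nominal genes, and 5 genes lie outside the y axis. Circled genes are described in the text, from Mcpt2 at 2.25 down to Trib3 at -1.01.

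The gene with the smallest p was Tlr1, which pairs with Tlr2 to sense bacterial lipopeptides (chromosome 5, 64924680 to 64933600). It had 45.5, 38.9 and 39.8 CPM in WT-Clonidine libraries, against 25.3, 26.7 and 29.2 CPM in WT-Control libraries. Every WT-Clonidine library lay above every WT-Control library, with a log2 difference of 0.61 (SE 0.10) and an edgeR adjusted p of 0.066. Among 26 tested genes of Toll-like receptors, their co-receptors and adaptors, 22 were above 0 and 9 were nominal higher and 0 lower, with a median of 0.12. Tlr8, a sensor of RNA in endosomes, had 26.4, 24.8 and 23.2 CPM in WT-Clonidine libraries, against 17.1, 19.6 and 18.7 CPM in WT-Control libraries, a log2 difference of 0.42 (SE 0.09). Tlr7, which senses single-stranded RNA, and Tlr13, which senses bacterial ribosomal RNA in mice, had log2 differences of 0.39 (SE 0.13) and 0.30 (SE 0.10). The count of 9 nominal genes was 2 without WT-Clonidine 1 and 4 without WT-Control 1, while the median stayed between 0.10 and 0.16.

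Other receptors of myeloid cells were among the genes with the smallest p or the largest differences. Clec4a3 and Clec4a1, C-type lectin receptors of myeloid cells, had log2 differences of 0.64 (SE 0.11) and 0.62 (SE 0.13). Clec4a3 had 61.9, 54 and 47.5 CPM in WT-Clonidine libraries, against 33.9, 36.2 and 34.4 CPM in WT-Control libraries. Clec4b1, a related lectin, had 3.5, 2.55 and 2.06 CPM in WT-Clonidine libraries, against 1.11, 1.1 and 1.05 CPM in WT-Control libraries, a log2 difference of 1.32 (SE 0.32). For each of the 3 lectin genes the groups did not overlap, and all 3 lie in a cluster on chromosome 6 (GRCm38), with Clec4a1 at 122921848 to 122934619 and Clec4b1 at 123049962 to 123071555. Reads of such similar genes may be shared. Cd300e, an activating receptor of monocytes, had 16.4, 13.3 and 5.68 CPM in WT-Clonidine libraries, against 3.72, 4.28 and 2.9 CPM in WT-Control libraries, a log2 difference of 1.71 (SE 0.42). WT-Clonidine 3 was less than 2 CPM above the highest WT-Control library for Cd300e, while WT-Clonidine 1 and 2 lay far above. Gpr84, a receptor for medium-chain fatty acids that inflammatory stimuli induce in macrophages, was in the other direction, with 11, 10.5 and 9.82 CPM in WT-Clonidine libraries, against 14.8, 18.1 and 24.1 CPM in WT-Control libraries, a log2 difference of -0.87 (SE 0.22).

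The macrophage and monocyte list was closer to all genes. Ranges given beside a list median are its lowest and highest values when single libraries were left out. Of 24 tested genes 16 were above 0, with 2 nominal higher and 1 lower and a median of 0.12 (0.03 without WT-Clonidine 1 to 0.20 without WT-Control 2; 1 nominal higher without WT-Clonidine 1). Chil3, a chitinase-like protein of alternatively activated macrophages, had 4.87, 4.43 and 3.25 CPM in WT-Clonidine libraries, against 1.63, 2.07 and 1.51 CPM in WT-Control libraries, a log2 difference of 1.28 (SE 0.45). Mrc1, the mannose receptor of the same cells, had 284, 264 and 304 CPM in WT-Clonidine libraries, against 240.2, 208 and 212 CPM in WT-Control libraries, a log2 difference of 0.37 (SE 0.16). Spp1, which encodes the secreted protein osteopontin, differed by -0.46 (SE 0.15). For Chil3, Mrc1 and Spp1 the groups did not overlap. Among 15 tested dendritic cell genes 11 were above 0 and 3 nominal higher (median 0.23; 0 nominal without WT-Clonidine 1 and 5 without WT-Clonidine 3). Batf3, a factor needed by cross-presenting dendritic cells, differed by 0.56 (SE 0.21), and Ccr7, which guides mature dendritic cells to lymph nodes, by 0.61 (SE 0.26).

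Genes of T cell receptor signalling lay above 0 without exception. All 25 tested genes were above 0, 18 were nominal higher, and the median was 0.65, beside 50.8% above 0 and a median of 0.00 over all tested genes. The mean level of the list relative to WT-Control was 0.86, 0.65 and 0.43 log2 units in WT-Clonidine 1 to 3 and -0.27, 0.22 and 0.05 in WT-Control 1 to 3. The groups did not overlap on that mean, with WT-Control 1 the lowest library and WT-Clonidine 1 the highest. Without either of these the nominal count was 7, and the median was between 0.49 and 0.67 whichever library was left out. Thinning every library to the shallowest left 11 nominal genes.

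Cd6 and Cd5 are scavenger-type receptors that temper signalling of the T cell receptor. Cd6 had 3.95, 3.23 and 2.55 CPM in WT-Clonidine libraries, against 1.58, 1.35 and 1.42 CPM in WT-Control libraries, a log2 difference of 1.16 (SE 0.28). Cd5 differed by 0.95 (SE 0.24). Lcp2, the adaptor SLP-76 shared by T cells and myeloid cells, had 71, 64.5 and 58.8 CPM in WT-Clonidine libraries, against 46.3, 52.4 and 50.1 CPM in WT-Control libraries, a log2 difference of 0.39 (SE 0.11). Themis, which sets the response threshold of developing T cells, differed by 1.13 (SE 0.34) at levels of at most 1.42 CPM. The coreceptor gene Cd8a, the mark of cytotoxic T cells, had 11.7, 10.2 and 8.76 CPM in WT-Clonidine libraries, against 3.06, 7.06 and 6.92 CPM in WT-Control libraries, a log2 difference of 0.84 (SE 0.36). Cd4, the mark of helper T cells, had 6.33, 5.21 and 6.11 CPM in WT-Clonidine libraries, against 6.48, 4.38 and 4.67 CPM in WT-Control libraries, a log2 difference of 0.19 (SE 0.22). The groups overlapped for Cd4 and not for Cd8a. Cd3e, a chain of the receptor itself, differed by 0.86 (SE 0.30), with WT-Control 1 the lowest library at 1.95 CPM.

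Among 20 transcription factors of T cell lineages, 17 were above 0, with 10 nominal higher and 1 lower (median 0.28; 6 higher without WT-Clonidine 2). Tox, a factor of chronically stimulated T cells, had 2.76, 2.76 and 1.45 CPM in WT-Clonidine libraries, against 0.639, 1.12 and 1.18 CPM in WT-Control libraries, a log2 difference of 1.24 (SE 0.31). Maf, expressed by several T helper lineages and abundantly by macrophages, had 269, 244 and 255 CPM in WT-Clonidine libraries, against 197, 195 and 159 CPM in WT-Control libraries, a log2 difference of 0.48 (SE 0.12). Ikzf4, or Eos, a partner of Foxp3 in regulatory T cells, had 1.7, 1.28 and 1.3 CPM in WT-Clonidine libraries, against 0.893, 0.843 and 0.712 CPM in WT-Control libraries, a log2 difference of 0.81 (SE 0.22). Lef1, a partner of beta-catenin in naive T cells that many tumour and stromal cells also use, was the nominal lower gene of this list, with 17.2, 20.6 and 21 CPM in WT-Clonidine libraries, against 25.7, 27.1 and 29.3 CPM in WT-Control libraries, a log2 difference of -0.48 (SE 0.11). For Tox, Maf, Ikzf4 and Lef1 the groups did not overlap.

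Of 19 natural killer cell genes 17 were above 0 with 3 nominal higher and a median of 0.37 (0.25 without WT-Clonidine 1 to 0.62 without WT-Control 2). The 3 were 0 without WT-Clonidine 1 or WT-Control 1 and 5 without WT-Control 2. Klrc1, the inhibitory receptor chain NKG2A, differed by 0.86 (SE 0.34), and Nkg7, a protein of cytotoxic granules, by 0.81 (SE 0.33). Klrc genes are near-identical in sequence, so their estimated counts are uncertain. Among 13 B cell and plasma cell genes 12 were above 0, with 1 nominal higher and 0 lower (median 0.21, from -0.01 without WT-Clonidine 3 to 0.29 without WT-Clonidine 2). That count of 1 is near the 5.98% of all tested genes that were nominal higher, and it was 0 without WT-Clonidine 1, WT-Control 2 or WT-Control 3.

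Cytokines and chemokines were mixed, with larger differences in a few scarce genes. Of 34 tested chemokines 23 were above 0, with 3 nominal higher and 1 lower and a median of 0.19 (0.10 without WT-Control 3 to 0.30 without WT-Clonidine 2). Cxcl13, which attracts B cells and follicular helper T cells, had 2.22, 2.01 and 2.2 CPM in WT-Clonidine libraries, against 0.934, 0.524 and 0.209 CPM in WT-Control libraries, a log2 difference of 2.00 (SE 0.63). Ccl17 and Ccl22, the ligands of Ccr4, lie in a cluster on chromosome 8 and differed by 1.64 (SE 0.56) and 1.00 (SE 0.34). Ccl22 had 8.77, 7.11 and 8.16 CPM in WT-Clonidine libraries, against 4.3, 4.75 and 3 CPM in WT-Control libraries. For these 3 chemokines every WT-Clonidine library lay above every WT-Control library. Of 21 chemokine receptors 15 were above 0, with 6 nominal higher and 0 lower (median 0.46, from 0.27 without WT-Control 3 to 0.49 without WT-Control 2; 3 nominal without WT-Clonidine 1 or WT-Control 1). For these receptors the median was 0.13 with the filter at a mean log2 CPM of 1, and thinned counts left 1 nominal gene. Ccr3, the eotaxin receptor, and Ccr10, a skin-homing receptor, differed by 0.94 (SE 0.30) and 1.01 (SE 0.33), both below 1 CPM. Of 29 cytokine genes 18 were above 0 and 3 nominal higher (median 0.085; 1 nominal without WT-Clonidine 1 or WT-Control 3, and a median of -0.0035 without WT-Clonidine 3 to 0.16 without WT-Clonidine 2). Ebi3, a subunit of IL-27 and IL-35, had 14.3, 11.8 and 11.3 CPM in WT-Clonidine libraries, against 6.91, 9.82 and 8.31 CPM in WT-Control libraries, a log2 difference of 0.58 (SE 0.14). Il10, an anti-inflammatory cytokine, differed by 1.09 (SE 0.37), with overlap between the groups.

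Mast cell genes had the highest list median, 1.3 over 19 tested genes, with 18 above 0 and 9 nominal higher. Mcpt2, a mast cell protease, had 5.39, 5.27 and 2.72 CPM in WT-Clonidine libraries, against 0.954, 0.452 and 1.34 CPM in WT-Control libraries, a log2 difference of 2.25 (SE 0.65). Cpa3, the carboxypeptidase of mast cell granules, had 4.33, 4.81 and 1.75 CPM in WT-Clonidine libraries, against 1.12, 0.997 and 0.714 CPM in WT-Control libraries, a log2 difference of 1.97 (SE 0.60). WT-Clonidine 3 was the lowest WT-Clonidine library for both genes and still lay above the WT-Control libraries. Mrgprb1 and Mrgprb2, receptors of the Mrgpr family (Mrgprb2 triggers mast cell degranulation), differed by 1.79 (SE 0.52) and 1.55 (SE 0.48), all below 1 CPM. The mean level of the list was 1.1, 1.1 and 0.69 log2 units in WT-Clonidine 1 to 3 and 0.087, 0.071 and -0.16 in WT-Control 1 to 3. With a filter at a mean log2 CPM of 1 the median was 0.22 and 3 genes were nominal, with most list members below that level. Of 6 tested eosinophil genes 4 were above 0 and 2 nominal higher (median 0.42, from 0.22 without WT-Clonidine 3 to 0.56 without WT-Control 2; 1 nominal without WT-Clonidine 1, WT-Clonidine 2, WT-Control 1 or WT-Control 3). Mcpt genes are similar in sequence, and reads may be split among them.

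Among 19 interferon-inducible GTPases, which attack the vacuoles of intracellular pathogens, all were above 0 and 9 were nominal higher (median 0.27; 4 without WT-Control 1). Iigp1 had 124, 120 and 129 CPM in WT-Clonidine libraries, against 72.6, 88.8 and 90.3 CPM in WT-Control libraries, a log2 difference of 0.56 (SE 0.14). Gbp7, Gbp8 and Gbp6 differed by 0.46 (SE 0.13), 0.98 (SE 0.30) and 0.38 (SE 0.13), with reads that may be shared among similar Gbp copies. Gm4951 had 21.8, 19 and 21.1 CPM in WT-Clonidine libraries, against 12.5, 15.5 and 12.8 CPM in WT-Control libraries, a log2 difference of 0.60 (SE 0.12). The broader list of 21 interferon-stimulated genes had 16 above 0 with 1 nominal higher and 0 lower. The median was 0.10, from -0.07 without WT-Clonidine 1 to 0.21 without WT-Control 2; the count was 0 without WT-Clonidine 1 or WT-Control 1, 2 without WT-Clonidine 3 and 4 without WT-Control 2. Of 13 genes of MHC class II presentation 12 were above 0 with 1 nominal (median 0.25, from 0.11 without WT-Clonidine 3 to 0.32 without WT-Control 3; 2 nominal without WT-Control 3), and of 18 genes of class I presentation 5 were above 0 and 13 below, with 1 nominal each way (median -0.06, from -0.12 without WT-Clonidine 1 to 0.03 without WT-Control 3). The nominal counts of class II and class I are near the 5.98% higher and 6.91% lower of all tested genes. Nlrc5, the activator of class I genes, differed by 0.40 (SE 0.19), and Psmb8, an immunoproteasome subunit, by -0.22 (SE 0.09).

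**Figure D2:**
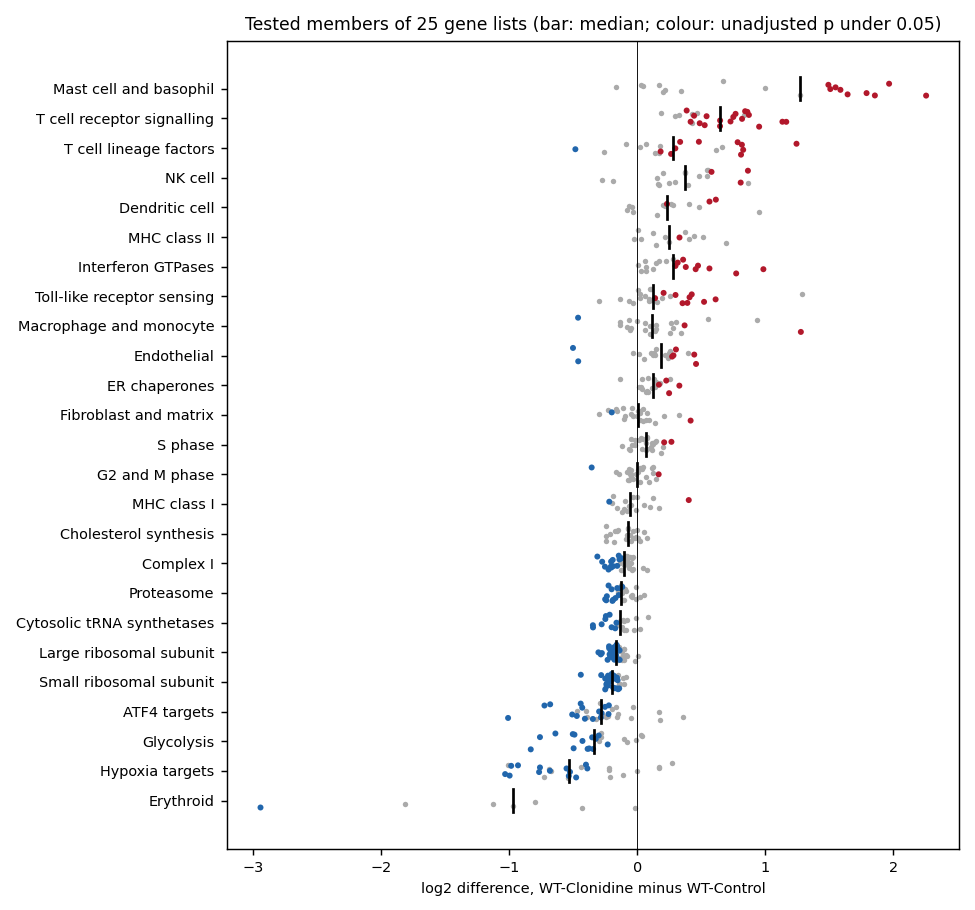
Each point is a tested member of 1 of 25 gene lists, placed by its log2 difference, WT-Clonidine minus WT-Control; black bars are list medians, and red and blue points are nominal genes above and below 0. Medians run from 1.3 for mast cell genes at the top to -0.97 for erythroid genes at the bottom.

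Targets of the transcription factor ATF4 were mostly below 0. ATF4 is made when eIF2alpha is phosphorylated under amino acid shortage or other stress, and it turns on genes for amino acid synthesis and transport. Of 32 tested targets 29 were below 0, 15 were nominal lower and 0 higher, and the median was -0.28. The mean level of the list was -0.30, -0.33 and -0.22 log2 units in WT-Clonidine 1 to 3, against -0.10, -0.04 and 0.14 in WT-Control 1 to 3. The count stayed between 10 and 17 when each library was left out.

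Trib3, a pseudokinase that ATF4 induces and that feeds back on it, had the lowest log2 difference of the genes named by size (chromosome 2, 152337425 to 152344060). It had 21.4, 20.9 and 23.1 CPM in WT-Clonidine libraries, against 38.4, 33.7 and 59.1 CPM in WT-Control libraries. WT-Clonidine libraries lay within 2.3 CPM of each other while WT-Control 3 was far above WT-Control 1 and 2, and the log2 difference was -1.01 (SE 0.18), with an edgeR adjusted p of 0.066. Asns, asparagine synthetase, had 78.1, 77.5 and 78.9 CPM in WT-Clonidine libraries, against 104, 96.9 and 124 CPM in WT-Control libraries, a log2 difference of -0.47 (SE 0.11). Sesn2, a leucine sensor that restrains mTORC1, had 23.8, 24.8 and 25.2 CPM in WT-Clonidine libraries, against 35, 31.9 and 38.1 CPM in WT-Control libraries, a log2 difference of -0.51 (SE 0.10). Psph, the last enzyme of serine synthesis, differed by -0.35 (SE 0.08), and Chac1, which degrades glutathione, by -0.68 (SE 0.18). Atf4 itself, chosen after its values were seen, had 216, 212 and 226 CPM in WT-Clonidine libraries, against 252, 237 and 275 CPM in WT-Control libraries, a log2 difference of -0.22 (SE 0.08). For these 6 genes the groups did not overlap.

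Promoters are shown for 3 of these genes because the ATF4 and C/EBP composite element TGATGNAA was found in 9 of 32 promoter windows of the list (28.1%), against 2.57% of 16022 windows of all tested genes. The search used both strands of windows from 250 bases before to 50 bases after a RefSeq start (GRCm38.p6), and 27 of the 32 genes had a window. Each window is written 5′ to 3′ on the gene's strand, with the match to either strand in capitals. Trib3 is chr2:152344011-152344310 (minus strand), Chac1 is chr2:119350992-119351291 (plus strand) and Asns is chr6:7693160-7693459 (minus strand).
Trib3: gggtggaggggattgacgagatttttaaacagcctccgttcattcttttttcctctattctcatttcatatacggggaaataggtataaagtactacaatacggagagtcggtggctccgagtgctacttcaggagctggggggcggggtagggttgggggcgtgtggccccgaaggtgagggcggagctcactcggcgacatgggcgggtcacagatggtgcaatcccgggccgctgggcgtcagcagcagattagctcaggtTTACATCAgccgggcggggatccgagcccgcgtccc
Chac1: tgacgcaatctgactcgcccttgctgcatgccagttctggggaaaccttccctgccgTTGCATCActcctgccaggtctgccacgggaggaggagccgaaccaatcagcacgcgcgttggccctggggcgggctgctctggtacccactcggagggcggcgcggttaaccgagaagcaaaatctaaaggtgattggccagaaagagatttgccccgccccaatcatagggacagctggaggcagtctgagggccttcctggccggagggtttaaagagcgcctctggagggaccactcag
Asns: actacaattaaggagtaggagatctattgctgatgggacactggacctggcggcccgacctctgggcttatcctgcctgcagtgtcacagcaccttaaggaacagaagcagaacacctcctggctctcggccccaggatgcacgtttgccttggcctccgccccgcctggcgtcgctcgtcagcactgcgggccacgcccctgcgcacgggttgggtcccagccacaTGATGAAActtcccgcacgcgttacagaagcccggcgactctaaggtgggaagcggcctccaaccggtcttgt
Trib3 carries the element as its reverse complement near the end of the window, downstream of the start, Chac1 as its reverse complement well upstream, and Asns in the forward direction just upstream of the start. A match is a description of letters and not of binding. The list was drawn up as ATF4 targets, so its share of matches is not a result of these libraries.

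Genes of tRNA charging and translation control were lower by smaller amounts. Of 21 cytosolic aminoacyl-tRNA synthetases 19 were below 0 and 9 nominal lower, with a median of -0.13 (5 nominal without WT-Clonidine 3 or WT-Control 3). TGATGNAA was found in 5 of their 14 promoter windows (35.7%). Sars, seryl-tRNA synthetase, had 279, 267 and 259 CPM in WT-Clonidine libraries, against 345, 325 and 353 CPM in WT-Control libraries, a log2 difference of -0.35 (SE 0.07). Nars, Aars and Cars, which charge asparagine, alanine and cysteine tRNAs, differed by -0.25 (SE 0.06), -0.35 (SE 0.10) and -0.28 (SE 0.08). Rtcb, the ligase that joins the pieces of spliced tRNAs and of Xbp1 mRNA, had 187, 184 and 186 CPM in WT-Clonidine libraries, against 229.9, 218 and 245 CPM in WT-Control libraries, a log2 difference of -0.31 (SE 0.05) with an edgeR adjusted p of 0.066. The 8 tested genes of that ligase and its partners had a median of -0.05. Of 39 translation factors 32 were below 0 and 12 nominal lower (median -0.09, from -0.14 without WT-Control 2 to -0.06 without WT-Clonidine 3; 6 nominal without WT-Clonidine 3 and 5 without WT-Control 3 or with total-count scaling). Eif4ebp1, which holds back cap-dependent translation and is also a known ATF4 target, had 94.5, 89 and 90.5 CPM in WT-Clonidine libraries, against 119.6, 122 and 142 CPM in WT-Control libraries, a log2 difference of -0.48 (SE 0.09).

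**Figure D3:**
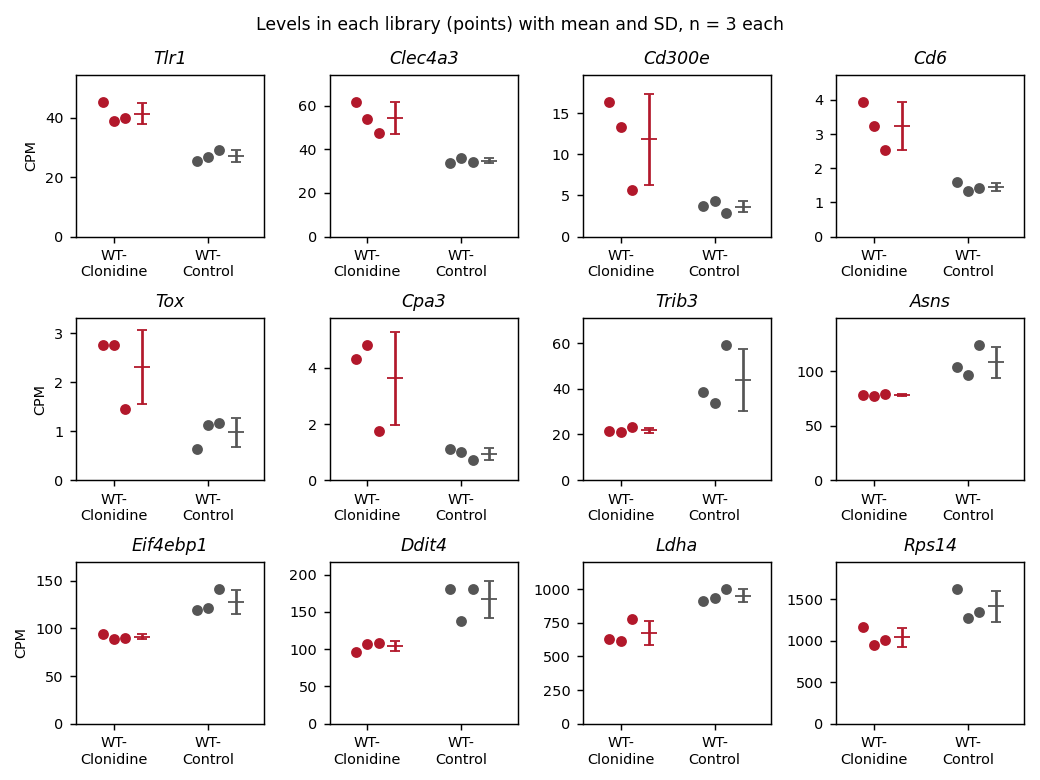
Points are CPM in each library for 12 genes, with WT-Clonidine in red at left and WT-Control in grey at right; the cross and bar beside them are the mean and SD (n = 3 each), and every axis starts at 0. The 3 libraries of a group do not overlap with those of the other for any of the 12 genes, which for several of them was a condition of being named. Tlr1 had 38.9 to 45.5 CPM in WT-Clonidine and 25.3 to 29.2 CPM in WT-Control.

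Genes of the endoplasmic reticulum (ER) chaperone response were mostly above 0. Of 20 tested genes 19 were above 0, with 4 nominal higher and 0 lower and a median of 0.13 (0.07 without WT-Control 1 to 0.16 without WT-Control 2). Dnajc3, a co-chaperone that also inhibits eIF2alpha kinases, had 111, 111 and 112 CPM in WT-Clonidine libraries, against 88.8, 102 and 94 CPM in WT-Control libraries, a log2 difference of 0.23 (SE 0.08). Creld2, an ER protein induced by unfolded proteins, differed by 0.33 (SE 0.12). Pdia4, a disulfide isomerase, and Sel1l, part of ER-associated degradation, differed by 0.25 (SE 0.09) and 0.17 (SE 0.07). The 4 nominal genes were 2 without WT-Clonidine 1, 1 without WT-Clonidine 2 and 0 without WT-Control 1.

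Targets of the hypoxia-inducible factors had the lowest median of any list with 10 or more tested genes. Of 27 tested targets 24 were below 0 and 13 nominal lower, with 0 higher and a median of -0.53. For 20 of the 27 every WT-Clonidine library lay below every WT-Control library, against 9.81% of all tested genes. The mean level of the list was -0.73, -0.57 and -0.21 log2 units in WT-Clonidine 1 to 3, against -0.09, 0.11 and -0.03 in WT-Control 1 to 3. WT-Clonidine 3 lay nearest to the WT-Control libraries. The nominal count was 6 without WT-Clonidine 1, 7 without WT-Clonidine 2 or WT-Control 2, and 20 in a fit of the 6 libraries alone, and the median lay between -0.62 and -0.44 throughout.

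Ddit4, or REDD1, which inhibits mTORC1 and is a target of both HIF and ATF4, had 96.9, 107 and 108 CPM in WT-Clonidine libraries, against 181, 138 and 181 CPM in WT-Control libraries, a log2 difference of -0.68 (SE 0.14). Pdk1, which keeps pyruvate out of the mitochondrion, had 39.1, 45.4 and 51.9 CPM in WT-Clonidine libraries, against 66.4, 87.5 and 78.1 CPM in WT-Control libraries, a log2 difference of -0.77 (SE 0.20). Ak4, a mitochondrial adenylate kinase, and Higd1a, a mitochondrial survival factor, differed by -0.55 (SE 0.17) and -0.53 (SE 0.18). Slc2a1, the glucose transporter GLUT1, and Vegfa, the main vessel growth factor, were chosen after their values were seen. Slc2a1 had 81.3, 98 and 128 CPM in WT-Clonidine libraries, against 146, 189 and 184 CPM in WT-Control libraries, and Vegfa had 88, 133 and 153 CPM in WT-Clonidine libraries, against 158, 182 and 203 CPM in WT-Control libraries. Their log2 differences were -0.76 (SE 0.35) and -0.54 (SE 0.26). In WT-Clonidine 3 both lay just below the lowest WT-Control library.

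Glycolysis enzymes overlap the hypoxia targets in part and were lower as well. Of 22 tested enzymes 20 were below 0 and 14 nominal lower, with a median of -0.33, and the count was 10 to 14 when each library was left out. Ldha, which makes lactate, had 627, 616 and 779 CPM in WT-Clonidine libraries, against 914, 935 and 1004 CPM in WT-Control libraries, a log2 difference of -0.50 (SE 0.13). Pkm, pyruvate kinase, had 1612, 1621 and 1781 CPM in WT-Clonidine libraries, against 2151, 2077 and 2334 CPM in WT-Control libraries, a log2 difference of -0.39 (SE 0.10). Pfkl, the liver-type phosphofructokinase that commits sugar to glycolysis, differed by -0.64 (SE 0.18), and the aldolase gene Aldoa by -0.43 (SE 0.13). For these 4 enzymes the groups did not overlap. Of 20 genes of the citric acid cycle 16 were below 0, with 2 nominal lower and a median of -0.04, and of -0.10 without WT-Control 2 to 0.01 without WT-Clonidine 3, with 0.01 under total-count scaling. Of 23 genes of cholesterol synthesis 19 were below 0 with 0 nominal (median -0.07, from -0.22 without WT-Control 1 to 0.09 without WT-Control 3).

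The core of the hypoxia response element, ACGTG, was found in 20 of 32 promoter windows of the hypoxia targets (62.5%) and 17 of 33 windows of the glycolysis enzymes (51.5%), against 23.5% of all windows. In the other lists searched it was found in 18 of 40 windows of large-subunit ribosomal genes (45%), 6 of 14 of the tRNA synthetases (42.9%), 10 of 32 of the ATF4 targets (31.2%) and 6 of 28 of small-subunit ribosomal genes (21.4%). The windows of 3 genes are shown as before, with matches to either strand in capitals, and 2 overlapping matches on opposite strands appear as CACGTG. Ddit4 is chr10:59951721-59952020 (minus strand), Ldha is chr7:46845554-46845853 (plus strand) and Ak4 is chr4:101419453-101419752 (plus strand).
Ddit4: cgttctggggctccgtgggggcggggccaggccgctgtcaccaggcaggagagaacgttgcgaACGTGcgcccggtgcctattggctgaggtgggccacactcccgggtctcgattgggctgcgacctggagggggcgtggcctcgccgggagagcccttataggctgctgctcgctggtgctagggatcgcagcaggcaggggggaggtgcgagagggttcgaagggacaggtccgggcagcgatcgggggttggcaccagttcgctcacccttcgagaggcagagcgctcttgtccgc
Ldha: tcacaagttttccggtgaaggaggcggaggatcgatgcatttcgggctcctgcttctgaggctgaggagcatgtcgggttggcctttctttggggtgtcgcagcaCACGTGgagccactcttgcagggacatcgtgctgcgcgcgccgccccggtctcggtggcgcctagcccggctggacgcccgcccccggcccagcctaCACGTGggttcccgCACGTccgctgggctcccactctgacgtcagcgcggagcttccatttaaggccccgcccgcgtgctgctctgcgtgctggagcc
Ak4: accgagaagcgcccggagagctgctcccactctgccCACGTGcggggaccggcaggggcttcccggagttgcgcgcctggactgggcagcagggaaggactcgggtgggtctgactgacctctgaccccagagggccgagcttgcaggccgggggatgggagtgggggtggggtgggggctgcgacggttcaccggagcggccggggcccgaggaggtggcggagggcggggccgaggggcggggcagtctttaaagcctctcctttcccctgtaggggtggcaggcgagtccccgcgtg
The Ldha window held 5 matches, that of Ak4 held 2, which overlap, and that of Ddit4 held 1. The hypoxia list was drawn up as targets of the hypoxia-inducible factors, so its share is not a result of these libraries either.

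Ribosomal protein genes were lower by small amounts in nearly every member. All 32 tested genes of the small subunit were below 0, with 26 nominal lower and a median of -0.20, and 46 of 47 genes of the large subunit were below 0, with 32 nominal lower and a median of -0.17. Rps14 had 1172, 949.5 and 1010 CPM in WT-Clonidine libraries, against 1629, 1276 and 1347 CPM in WT-Control libraries, a log2 difference of -0.44 (SE 0.10). Rpl13 had 1126, 1099 and 1030 CPM in WT-Clonidine libraries, against 1362, 1224 and 1381 CPM in WT-Control libraries, a log2 difference of -0.29 (SE 0.06). Rps7 and Rps28 differed by -0.25 (SE 0.06) and -0.22 (SE 0.06). The groups did not overlap for these 4 genes. The nominal counts depended on single libraries. They were 15 and 9 for the small and large subunit without WT-Control 1, 17 for the large subunit without WT-Clonidine 2 and 16 without WT-Clonidine 3. With total-count scaling they were 16 and 12, with medians of -0.15 and -0.12. Reads of ribosomal proteins and their pseudogenes can be shared.

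Subunits of other housekeeping complexes were mostly below 0 as well. Their mean levels, relative to WT-Control, were also low in the groups titled guanabenz. For complex I they were -0.19, -0.15 and -0.09 in WT-Guanabenz 1 to 3 and -0.19, -0.15 and -0.09 in KO-Guanabenz 1 to 3. For the proteasome they were -0.12, -0.17 and -0.12, and -0.13, -0.15 and -0.05. Of 36 subunits of respiratory complex I 34 were below 0 and 13 nominal lower (median -0.11, from -0.14 without WT-Clonidine 1 to -0.07 without WT-Control 1). Ndufs4, an accessory subunit needed to assemble the complex, had 52.4, 48.1 and 48.6 CPM in WT-Clonidine libraries, against 64.9, 56.5 and 58.9 CPM in WT-Control libraries, a log2 difference of -0.27 (SE 0.06). Of 31 proteasome genes 29 were below 0 and 12 nominal lower (median -0.13, from -0.16 without WT-Clonidine 1 to -0.08 without WT-Clonidine 3). Psmd4, a receptor for ubiquitin chains, had 154, 158 and 153 CPM in WT-Clonidine libraries, against 188, 173 and 174 CPM in WT-Control libraries, a log2 difference of -0.20 (SE 0.05). The complex I count was 7 without WT-Clonidine 2 or WT-Control 1 and 5 with total-count scaling. The proteasome count was 6 and 4 without WT-Clonidine 2 and 3, 5 without WT-Control 1 or 3, and 5 with total-count scaling. Pafah1b3, a catalytic subunit of brain-type platelet-activating factor acetylhydrolase, was lower in every WT-Clonidine library, with 32.4, 30.9 and 33.6 CPM in WT-Clonidine libraries, against 51.6, 42.8 and 46.7 CPM in WT-Control libraries, a log2 difference of -0.54 (SE 0.10).

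The direction of the differences went with transcript length and with level. Each gene was given the median length of its annotated transcripts (GENCODE M21). The median length was 953 bases for nominal lower genes and 1891 bases for nominal higher genes, against 1539 for all. In 5 equal groups of genes by length, from short to long, 11.2%, 9.61%, 6.96%, 4.38% and 2.80% of genes were nominal lower, and 4.03%, 5.29%, 5.95%, 7.24% and 7.46% nominal higher. The medians of the 5 groups ran from -0.03 to 0.05. In 5 equal groups by mean level, from low to high, 1.24%, 2.2%, 8.34%, 9.77% and 13% of genes were nominal lower. In the same groups 3.91%, 8.74%, 6.64%, 6.26% and 4.34% were nominal higher. The median length fell from 1801 bases in the lowest of them to 1167 in the highest, so length and level were not told apart. With each library's trend with length removed, the nominal counts were 20 for the small and 22 for the large ribosomal subunit, 12 for complex I and 10 for the proteasome, with medians of -0.16, -0.14, -0.07 and -0.12. The counts were 13 for glycolysis, 12 for hypoxia, 16 for ATF4 targets and 18 for T cell receptor signalling. So these lists stayed on the same side of 0 with the trend removed, and how RNA quality bore on the trend was not tested.

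**Figure D4:**
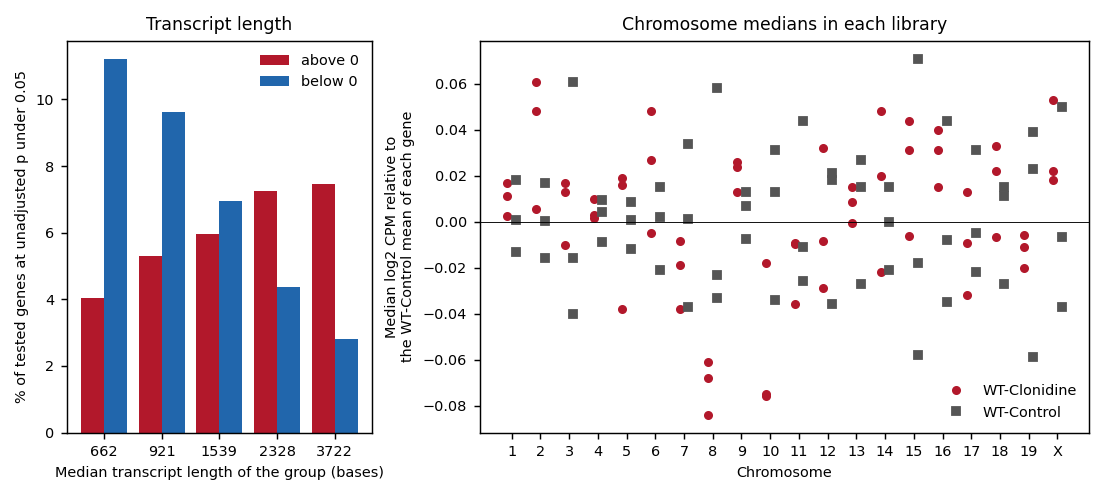
Left, the share of tested genes that were nominal above 0 (red) and below 0 (blue) in each of 5 groups of transcript length, with the median length of the group in bases on the x axis; shares below 0 run from 11.2% to 2.80% from short to long. Right, for genes with a mean log2 CPM of at least 4, the median log2 CPM of each chromosome in each library relative to WT-Control, where chromosome 8 is the chromosome whose 3 WT-Clonidine points (red circles) lie below all 3 WT-Control points (grey squares).

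By chromosome, lower genes were most frequent on chromosome 8. Of its 828 tested genes 135 (16.3%) were nominal lower and 3.14% nominal higher, with a median of -0.07. Chromosome 10 followed with 12.7% nominal lower. For chromosome 8 the median level in each library, relative to WT-Control and to all chromosomes, was -0.07, -0.08 and -0.06 in WT-Clonidine 1 to 3, against -0.03, -0.02 and 0.06 in WT-Control 1 to 3. It was the only one of chromosomes 1 to 19 and X whose groups did not overlap. In 8 consecutive stretches of the chromosome with 61 or 62 genes each, the median log2 difference lay between -0.11 and -0.07, so no single stretch held the shift. Without WT-Control 3 72 genes were nominal lower, and with total-count scaling 86. The chromosome median was also low in other groups: it was -0.05, -0.05 and -0.06 in the 3 KO-Guanabenz libraries and -0.10 in WT-Guanabenz 3, and it ranged from -0.04 to 0.01 in KO-Clonidine. Eif4ebp1, Mvb12a and the Ccl17 and Ccl22 pair lie on chromosome 8. Mvb12a, a subunit of the ESCRT-I sorting complex, had 48.1, 43.7 and 47.1 CPM in WT-Clonidine libraries, against 62.5, 53.1 and 62.4 CPM in WT-Control libraries, a log2 difference of -0.36 (SE 0.06).

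Genes with related symbols were compared without regard to the lists. Of 113 symbol stems with at least 15 tested genes, Ifi, Pla, Serpinb, Ccl, Cd and Ly had the highest medians, from 0.29 to 0.22, and Krt, Rpl, Rps, Prss, Kdm and Stx the lowest, from -0.51 to -0.09. The Cd stem, which gathers leukocyte surface molecules, had 94 genes with 77 above 0, 25 nominal higher and 2 lower. Rpl and Rps had 30 of 50 and 25 of 47 genes nominal lower. Nominal higher were 2 of 15 for Ifi, 2 of 16 for Pla, 2 of 18 for Serpinb, 2 of 19 for Ccl and 1 of 16 for Ly. Nominal lower were 0 of 17 for Prss, 2 of 18 for Kdm and 2 of 15 for Stx. In the other direction Serpinb and Ccl had 1 lower each, and Stx had 1 higher. Counts this small, beside 5.98% higher and 6.91% lower of all tested genes, are not a result about those stems. In the keratin stem 24 of 38 genes were below 0, from -2.9 to 1.5, with 1 nominal each way.

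Several genes with the smallest p fall in none of these groups. Slc13a3, a sodium-coupled transporter of dicarboxylates (chromosome 2, 165405295 to 165473197), had 19.2, 15.6 and 14.9 CPM in WT-Clonidine libraries, against 10.1, 7.72 and 7.86 CPM in WT-Control libraries, a log2 difference of 0.95 (SE 0.17). Slc28a2, a concentrative nucleoside transporter, had 18.2, 14.4 and 14.4 CPM in WT-Clonidine libraries, against 8.14, 10.9 and 9.91 CPM in WT-Control libraries, a log2 difference of 0.70 (SE 0.13). Cav1, the coat protein of caveolae in endothelium, fat and fibroblasts, had 368, 394 and 342 CPM in WT-Clonidine libraries, against 266, 278 and 273 CPM in WT-Control libraries, a log2 difference of 0.44 (SE 0.08). For these 3 genes the groups did not overlap, which was a condition of being named. Dock10, an activator of small GTPases in leukocytes, differed by 0.43 (SE 0.09). Cdc7, the kinase that fires replication origins, and Zwilch, a kinetochore protein, differed by 0.40 (SE 0.08) and 0.32 (SE 0.07). 9430015G10Rik differed by 0.35 (SE 0.07).

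Among the lower genes, Mzt2, a small protein of the gamma-tubulin complex, had 16.3, 14.6 and 16.4 CPM in WT-Clonidine libraries, against 21.7, 21.1 and 21.1 CPM in WT-Control libraries, a log2 difference of -0.44 (SE 0.08). The larger subunit Tubgcp5 was in the other direction, at 0.22 (SE 0.06), and the 11 genes of that complex had a median of 0.00. Arid5a, an RNA-binding protein that stabilises Il6 mRNA, had 15.4, 15 and 17.9 CPM in WT-Clonidine libraries, against 22.2, 22.1 and 24.6 CPM in WT-Control libraries, a log2 difference of -0.52 (SE 0.10). Ier5l, Htatip2, Hes6 (a partner of Hes repressors) and Galk1 (galactokinase) differed by -0.44 (SE 0.08), -0.49 (SE 0.09), -0.39 (SE 0.08) and -0.37 (SE 0.07). Sh3gl3, or endophilin A3, had 3.83, 3.47 and 4.02 CPM in WT-Clonidine libraries, against 6.87, 6.82 and 5.52 CPM in WT-Control libraries, a log2 difference of -0.76 (SE 0.15). Dpyd, which breaks down pyrimidines, and Prelid2 differed by -0.79 (SE 0.22) and -0.85 (SE 0.22). For every gene of this paragraph the WT-Clonidine and WT-Control ranges did not overlap, which for all but Tubgcp5 was a condition of being named.

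Circadian clock genes differed in both directions. Of 19 tested genes 12 were above 0 and 7 below, with 6 nominal higher and 1 lower (median 0.17). The period genes Per2 and Per3, repressors of the clock, had the smallest p. Per2 had 8.72, 6.97 and 9.57 CPM in WT-Clonidine libraries, against 6.38, 4.68 and 3.83 CPM in WT-Control libraries, a log2 difference of 0.77 (SE 0.16). Per3 had 11.7, 11.4 and 15.1 CPM in WT-Clonidine libraries, against 7.91, 9.15 and 6.82 CPM in WT-Control libraries, a log2 difference of 0.68 (SE 0.17). Dbp, a clock output factor, differed by 0.70 (SE 0.27). The 6 higher genes were 2 without WT-Clonidine 3 or WT-Control 3. The hour of collection is not given in the labels used here. Immediate early genes were mixed, with 8 of 21 above 0 and 2 nominal each way: Egr1, a growth factor response gene, differed by -0.50 (SE 0.13) and Nr4a2, an orphan nuclear receptor, by 0.32 (SE 0.11). Of 14 glucocorticoid targets 5 were above 0, with 1 nominal higher and 4 lower: Tsc22d3, or GILZ, differed by 0.34 (SE 0.11), and Mt1, a metallothionein that hypoxia and zinc also induce, by -0.75 (SE 0.30). The 4 lower genes were 0 without WT-Clonidine 1 or 2, and 2 without each WT-Control library in turn.

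Vessel and stromal genes showed small differences. Over all tested genes 5.98% were nominal higher and 6.91% lower. The fibroblast, S phase, and G2 and M phase counts below are near those shares. Of 20 endothelial genes 17 were above 0, with 5 nominal higher and 2 lower (median 0.18), and the 5 were 0 without WT-Clonidine 1, WT-Clonidine 2 or WT-Control 3 and 3 without WT-Control 1 or 2. Plvap, the diaphragm protein of fenestrated vessels, had 69.5, 72.8 and 58.8 CPM in WT-Clonidine libraries, against 55.3, 57.3 and 52.8 CPM in WT-Control libraries, a log2 difference of 0.28 (SE 0.11). Cdh5, or VE-cadherin, differed by 0.27 (SE 0.12). Apln, apelin, made by tip cells and induced by hypoxia, was lower, with 33.8, 38.1 and 39.2 CPM in WT-Clonidine libraries, against 48.6, 50.9 and 53.4 CPM in WT-Control libraries, a log2 difference of -0.46 (SE 0.18). Of 16 pericyte and smooth muscle genes 10 were above 0, with 3 nominal higher (median 0.16, from 0.10 without WT-Clonidine 2 to 0.17 without WT-Control 1; 1 nominal without WT-Clonidine 2, WT-Control 1 or WT-Control 3). Of 26 fibroblast and matrix genes 13 were above and 13 below 0, with 1 nominal each way and a median of 0.00 (-0.12 without WT-Clonidine 3 to 0.04 without WT-Control 2). Of 26 S phase genes 19 were above 0 with 2 nominal higher (median 0.07, from 0.04 without WT-Clonidine 1 to 0.12 without WT-Clonidine 3; 0 nominal without WT-Clonidine 1 or 2, 1 without WT-Control 1 or 3, and 4 without WT-Clonidine 3), and of 26 G2 and M phase genes 13 were above 0 with 1 nominal each way (median -0.01, from -0.06 without WT-Clonidine 2 to 0.07 without WT-Clonidine 3).

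Markers of tissues next to the tumour or in its blood also varied, and their part in the results above was not tested. All 7 erythroid genes were below 0, with 1 nominal lower, which was 0 without any single library other than WT-Control 2, and a median of -0.97. Alas2, the haem synthesis enzyme of red cell precursors, had 1.54, 2.05 and 3.35 CPM in WT-Clonidine libraries, against 6.05, 3.79 and 3.67 CPM in WT-Control libraries, a log2 difference of -0.97 (SE 0.77). The mean level of the erythroid list was -1.4, -1.3 and -0.45 log2 units in WT-Clonidine 1 to 3, against 0.54, -0.35 and -0.20 in WT-Control 1 to 3. Of 13 neutrophil genes 8 were below 0 with 2 nominal lower (median -0.10, from -0.23 without WT-Clonidine 3 to -0.02 without WT-Control 2; 0 nominal without WT-Clonidine 1, WT-Clonidine 2 or WT-Control 3, and 1 without WT-Control 1). S100a8, an alarmin of neutrophils, had 0.567, 0.756 and 1.64 CPM in WT-Clonidine libraries, against 3.32, 1.85 and 2.83 CPM in WT-Control libraries, a log2 difference of -1.46 (SE 0.62). Skeletal muscle genes had 11 of 19 above 0 and a median of 0.11 (-0.17 without WT-Control 3 to 0.39 without WT-Control 2). Myh4, a fast myosin heavy chain, was the nominal gene of that list with 62.1, 44.3 and 45.4 CPM in WT-Clonidine libraries, against 14, 20.9 and 10.7 CPM in WT-Control libraries, a log2 difference of 1.74 (SE 0.53). Mb, myoglobin, lay on the other side of 0, at -0.83 (SE 0.42). Of 14 skin keratinocyte genes 13 were above 0 with 0 nominal (median 0.32, from 0.20 without WT-Clonidine 2 to 0.47 without WT-Control 3). Of 12 adipocyte genes 9 were above 0 with 2 nominal higher (median 0.34, from 0.12 without WT-Control 3 to 0.73 without WT-Control 2; 1 nominal without WT-Clonidine 1, WT-Clonidine 3, WT-Control 1 or WT-Control 3), among them Pparg, the master factor of fat cells that macrophages and regulatory T cells also use, which had 5.27, 4.18 and 3.12 CPM in WT-Clonidine libraries, against 2.84, 2.51 and 2.61 CPM in WT-Control libraries, a log2 difference of 0.66 (SE 0.17).

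The effect of clonidine in hosts without Adra2a was set beside that in WT hosts. KO-Clonidine was compared with KO-Control, and the difference between the effects (WT minus KO) was tested in the same fit. edgeR called 0 of 16125 genes (0%) for that difference, with a smallest adjusted p of 0.057, and 1442 genes (8.94%) had an unadjusted p under 0.05. DESeq2 called 37 and voom 2. The 3 Y-linked genes averaged above 1 CPM in none of the KO-Clonidine libraries (0 of 3) but in 2 of the 3 from KO-Control, so in KO hosts this measure went with treatment. Sh3gl3 was among the 3 genes with the smallest adjusted p: the log2 difference was -0.76 (SE 0.15) in WT and 0.69 (SE 0.15) in KO, a difference between genotypes of -1.45, SE 0.22, with an edgeR adjusted p of 0.057.

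The list medians in the 2 genotypes are given for lists picked out by their values in WT hosts. The difference between genotypes holds those same WT values, so that choice can raise the counts given for it. For T cell receptor signalling the median was 0.65 in WT and -0.15 in KO, and 14 of 25 members had an unadjusted p under 0.05 for the difference. The mean level of that list was -0.29, 0.12 and -0.084 in KO-Clonidine 1 to 3, against 0.24, -0.037 and 0.053 in KO-Control 1 to 3, with overlap. For ATF4 targets the medians were -0.28 in WT and 0.06 in KO, with 15 of 32 members. For hypoxia targets they were -0.53 in WT and 0.01 in KO, with 6 of 27, and for glycolysis -0.33 in WT and 0.01 in KO, with 9 of 22. The mean hypoxia level was -0.44, -0.16 and 0.57 log2 units in KO-Clonidine 1 to 3, against -0.23, 0.45 and -0.18 in KO-Control 1 to 3. The glycolysis levels were -0.24, -0.12 and 0.40, against -0.13, 0.25 and -0.08. KO-Clonidine 3 was the highest of these libraries in both lists, so these KO medians do not show an absent response. For the small ribosomal subunit the medians were -0.20 in WT and 0.04 in KO, with 21 of 32. The mean level of that list was -0.14, -0.21 and -0.23 in WT-Clonidine 1 to 3. It was also low in WT-Guanabenz (-0.24, -0.23 and -0.15) and KO-Guanabenz (-0.21, -0.21 and -0.11). For mast cell genes the medians were 1.3 in WT and -0.07 in KO, with 6 of 19. The mean mast cell level was -0.026, 0.74 and -0.0099 in KO-Clonidine 1 to 3, against 0.49, 0.1 and 0.59 in KO-Control 1 to 3. It was 1.1, 1.1 and 0.69 in WT-Clonidine 1 to 3 and 0.038, 0.22 and 1 in WT-Guanabenz 1 to 3. Single libraries of other groups thus reached the WT-Clonidine levels. For ER chaperones they were 0.13 in WT and 0.19 in KO, with 0 of 20. No member of these lists passed the adjusted test of the difference.

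Single genes were tested in the same way, and they had been chosen by their values in WT hosts. Cd6 differed by 1.16 (SE 0.28) in WT and -0.77 (SE 0.28) in KO (difference 1.93, SE 0.40, edgeR adjusted p = 0.30), and Trib3 by -1.01 (SE 0.18) in WT and 0.00075 (SE 0.17) in KO (difference -1.01, SE 0.25, edgeR adjusted p = 0.38). Tlr1 differed by 0.61 (SE 0.10) in WT and 0.10 (SE 0.10) in KO (difference 0.51, SE 0.14, edgeR adjusted p = 0.39). The log2 difference of Cav1 was above 0 in both genotypes, at 0.44 (SE 0.08) in WT and 0.27 (SE 0.08) in KO (difference 0.16, SE 0.11, edgeR adjusted p = 0.70). A p that misses the threshold does not show that the 2 genotypes responded alike, and the SE of each difference gives its precision.

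**Figure D5:**
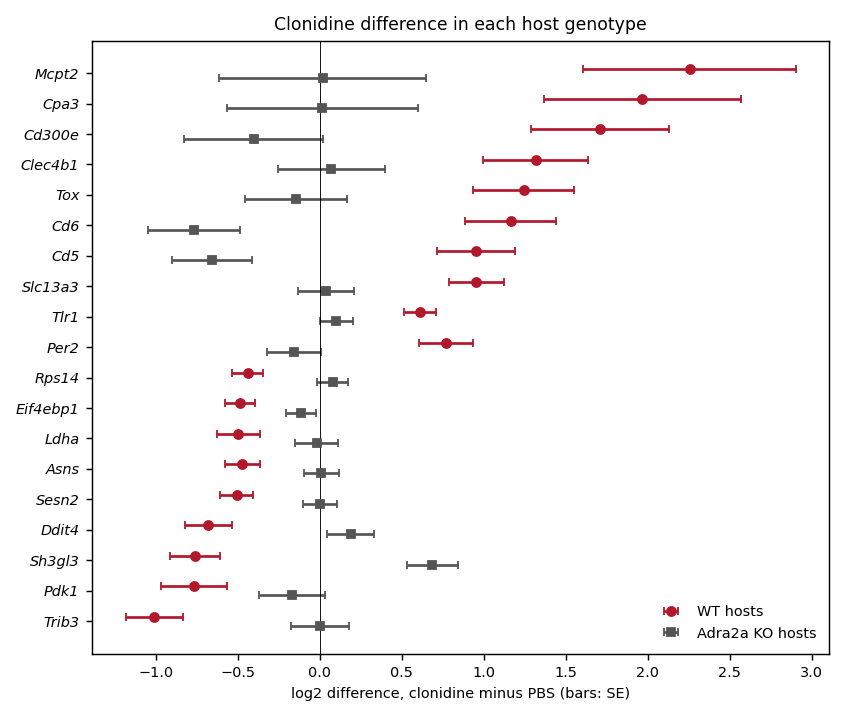
Points are log2 differences, clonidine minus PBS, with bars for the SE, for 19 genes in WT hosts (red circles) and in Adra2a KO hosts (grey squares). The genes were chosen by their WT values. Each KO value lies nearer to 0 than its WT value, which this choice favours and which is not a result. The KO value lies on the other side of 0 for Cd6, Cd5 and Sh3gl3, among others.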

How the data were processed

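Whole-tumour RNA of 18 mouse samples in 6 groups of 3 was sequenced. Reads were trimmed with Trim Galore 0.6.5 and assigned to genes of GRCm38 with kallisto 0.46.0, per the submitters' processing notes. The authors deposited estimated counts per gene, already whole numbers, for all libraries. Strandedness and the gene annotation are not given in the sources used here, and kallisto divides reads among similar copies, so values of near-identical or antisense genes are uncertain.

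Of 21015 gene IDs 20994 matched a symbol in RefSeq GRCm38.p6, and the rest held at most 0.0216% of a library's counts. edgeR 4.0.16 in R 4.3.3 fitted all 18 libraries with a mean per group, after edgeR's filter on low counts (16125 genes kept) and TMM scaling, and its quasi-likelihood test gave p-values, adjusted by Benjamini-Hochberg over all tested genes. Sharing 1 spread estimate among 6 groups leaves 12 residual degrees of freedom. Titles set the groups; the 3 libraries titled KO-Guanabenz carry another treatment entry and were also left out as an alternative. Deposited totals run from 54683838 to 491137160, so counting error is small beside the spread between libraries for all but scarce genes, and 3 libraries a group limit the precision.

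Alternatives were DESeq2 1.42.0, limma-voom (limma 3.58.1) with quality weights, RLE or total-count scaling, 2 other filters, fits of fewer libraries, a replicate block, thinning, removal of the length trend, a term for Y-linked transcripts, and each library left out. Members and gene lists were chosen with earlier results of these data known, and a list is described by its counts and median only. Genes named are, in each direction and without overlap, the 12 with the smallest p (mean log2 CPM of at least 1) and the 8 with the largest difference (mean log2 CPM of at least 0, unadjusted p under 0.01), up to 4 of smallest p per list, and adrenergic receptors; some of these are not reported here. Cd3e, Cd4, Cd8a, Atf4, Slc2a1, Vegfa and the markers Ptprc, Col1a1 and Krt8 were chosen after their values were seen. List levels per library are means of log2 CPM with a prior count of 2, relative to the WT-Control mean.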

Additional observations from a re-analysis of the deposited data

Results flagged for a closer look

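Only genes named in the text were searched, many of them chosen by their WT values, and not all tested genes. For 4 of them every WT-Clonidine library lay on one side of its control group. Every KO-Clonidine library lay on the other side of its own, which was the rule for listing them here. The share of all tested genes that meet this rule was not counted, so the number 4 is not a result. The log2 difference between genotypes, WT minus KO, was -1.4 for Sh3gl3 (edgeR adjusted p = 0.057), -2.8 for Alas2 (edgeR adjusted p = 0.50), 1.2 for Ikzf4 (edgeR adjusted p = 0.39) and -0.39 for Rps28 (edgeR adjusted p = 0.30). None passed the test of the difference itself at adjusted p under 0.05.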

How the results depend on the processing

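Called genes numbered 355 in DESeq2 (2192 genes had no adjusted p there), 773 in limma-voom and 0 to 55 when each library was left out, with 55 without WT-Control 2; every other edgeR alternative gave 0. Higher genes at an unadjusted p under 0.05 numbered 1978 in limma-voom, 1580 with total counts and 593 to 1169 when libraries were left out, with 593 without WT-Control 1. Lower genes numbered 1817 in limma-voom, 538 with total counts and 748 to 1341 when libraries were left out. For the difference between genotypes, calls numbered 37 in DESeq2, 2 in limma-voom, 3 with no filter, 2 with thinned counts, 2 with the length trend removed, 2 with a term for Y-linked transcripts and 0 to 2 when libraries were left out; the cause was not tested. The log2 difference of Adra2a was 0.0072 in DESeq2, 0.27 in limma-voom, 0.043 with total counts, 0.0031 with no filter, 0.017 in the 6 libraries alone, 0.0033 in the WT libraries alone and -0.72 with thinned counts, and lay between -0.25 and 0.30 when libraries were left out, with 0.14 without WT-Clonidine 3 and 0.30 without WT-Control 1, so its sign is not determined. With the replicate number as a block edgeR called 0 genes and 2118 had an unadjusted p under 0.05. Same-numbered WT-Clonidine and WT-Control libraries had deviations from their group means that correlated at -0.03, -0.098 and -0.15. Deviations from a mean of 3 libraries cancel within each group, so these values cannot show whether same-numbered libraries were paired.

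At 3 libraries a group, differences of scarce genes carry wide errors.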
